A study of Rattus norvegicus with 15 samples.

Results

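The contractile and SRF target genes described here are 10 of the 37367 genes in the deposited table: Acta2, Tagln, Myl9, Cnn1, Cnn2, Tpm1, Tpm2, Actn1, Flna and Srf. A gene was taken as all transcripts that carry its name, together with unnamed assembled transcripts of a locus that holds no other named gene, and their FPKM (fragments per kilobase of transcript, scaled to the mapped fragments of the library) were summed in each library. The 10 genes had 36 transcripts in the table. The mean over all libraries reached the 0.5 FPKM needed for a test in 8 of the 10 genes, and Acta2 and Cnn1 did not reach it.

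RNA sequencing was run on brain microvascular endothelial cells, which line the capillaries of the brain, in primary culture from the cerebral cortex of Spraque-Dawley rats (as spelled in the labels). The animals were littermates of both sexes aged 2 to 3 weeks, and the study compared unexposed cells with cells collected after x-ray exposure. The 15 libraries fell into 5 groups of 3: a control group cultured for 12 h without radiation, cells 12 h after 5 Gy, cells 12 h after 20 Gy, cells 24 h after 5 Gy and cells 24 h after 20 Gy. Cells were grown in endothelial cell medium, other cells were reduced by differential adhesion, and exposure took place before the cultures were confluent. Control cells went through every other step that the exposed cells did, no unexposed 24 h culture was analysed here, and all 4 comparisons with control share the same 3 control libraries, so a difference between a 24 h group and control cannot be told apart from time in culture.

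The depth, read from how low FPKM values step, was 5.44 to 7.49 gigabases of aligned sequence per library. The cell label was checked against 15 endothelial marker genes, of which 14 had a row. The mean was under 1 FPKM in 11 of these 14, Tie1 and Emcn were listed at 0 in every library, and the summed level of the 14 ranged from 4.70 to 11.3 FPKM. Cdh5, the adhesion molecule of endothelial junctions, had 0.120, 0.275 and 0.177 FPKM in the control libraries and 0 to 0.0987 FPKM in the exposed ones. Flt1, another of these markers, did not fall with it. Its mean was 2.84 FPKM in control, 2.72 and 3.75 FPKM 12 h after 5 and 20 Gy, and 4.09 and 3.14 FPKM at 24 h. Of the 4 endothelial markers tested, 0 were called in each comparison with control. The sum of 10 fibroblast markers was 2273 to 2574 FPKM in control and 811 to 962 FPKM across the 24 h groups. Of the 9 tested among them, 5 were lower in each 24 h group, beside 20.8% and 23.3% of all tested genes after 5 and 20 Gy. The markers did not move together. Col1a1 had a mean of 516 FPKM in control and 27.0 and 31.4 FPKM 24 h after 5 and 20 Gy, and Fbln1 had 502, 581 and 567 FPKM. The sum of 12 pericyte and smooth muscle markers was 56.1 to 64.4 FPKM in control and 17.9 to 31.0 FPKM at 24 h, with 10 of the 12 under 1 FPKM. Among these, Pdgfrb had a mean of 44.5 FPKM in control and 18.2 and 11.7 FPKM 24 h after 5 and 20 Gy, while Myh11 had 0.0608, 1.29 and 1.18 FPKM. The sum of 10 astrocyte, neuron and microglia markers stayed between 5.40 and 14.0 FPKM. The defining endothelial transcripts therefore went against the label, and the cells are called by their culture name below. The part of these markers in the results was not tested.

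Serum response factor (SRF) is a transcription factor that binds a short element called the CArG box. It works with a set of actin-sensing cofactors, the myocardin-related transcription factors (MRTF), which leave the cytoplasm when free actin is used up by filament assembly, and with ternary complex factors (TCF), which respond to growth factor signalling and drive immediate early genes. Its MRTF-dependent targets encode actin, the tropomyosins that coat actin filaments, the calponins and transgelin that bind them, the filamins and alpha-actinins that crosslink them, and the light chains of the myosin that pulls on them, and in vessels these genes are known for mural cells and for cells under mechanical load.

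CArG boxes were looked for as the letters CC, 6 bases of A or T, and GG in the RefSeq promoter windows of build GRCr8, which run from 250 bases before to 50 bases after each start site. The pattern matches itself on the other strand, and it was present in 548 of 33469 windows, 1.64%. Windows were given for 8 of the 10 genes, and Tagln and Myl9 were not among them. The motif was found in 2 of these 8, Cnn2 and Srf, and in 4 of the 26 windows of the MRTF-linked genes listed below, Actg1 among them. It was found in 2 of 6 windows of the TCF-linked genes and in 0 of 25 windows of the other smooth muscle contractile genes. Of the 12 windows of the SRF cofactors and regulators 2 held it, both of them start sites of the same gene, Fhl2. A gene with several start sites has several windows, and Fos, Egr3 and Actb, named below, had no window. A box with a changed letter, or a box outside the window, would not be found by this search. A window without the motif is therefore not a gene without SRF elements. The stretch around the motifs of Cnn2 and Srf is shown because no other member window held a motif, and that of Actg1 because it is the named actin gene with a motif. Whether a motif went with the depth of a change was not tested. Each runs 5′ to 3′ on the strand of the gene, with the CArG boxes in capitals. The match is a description of the letters and not of binding.
Cnn2 (chr7:10370344-10370413, minus strand, 101 to 32 bases before the start site): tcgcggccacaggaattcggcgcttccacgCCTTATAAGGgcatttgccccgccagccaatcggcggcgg
Srf (chr9:21923965-21924054, plus strand, 111 to 22 bases before the start site): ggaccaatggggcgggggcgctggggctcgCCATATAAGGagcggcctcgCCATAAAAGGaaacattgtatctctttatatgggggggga
Actg1 (chr10:106121002-106121071, minus strand, 120 to 51 bases before the start site): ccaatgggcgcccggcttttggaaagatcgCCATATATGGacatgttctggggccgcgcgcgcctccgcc
The Srf window held 2 boxes and the others 1 each. The gene coordinates below are those of the expression table, in build Rnor_6.0, and positions and strands are not comparable between the builds.

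Exposure was followed by lower levels of most of these genes, and the members differed in when. Srf, Cnn2, Actn1 and Tpm1 were lower in all 4 exposed groups, whereas Flna and Tpm2 were lower in both 24 h groups and not called at 12 h. Tagln was called in none, nor was Myl9, and no member was called higher in any group. Genes were called where limma gave a two-sided p under 0.05 after Benjamini-Hochberg adjustment over all 17895 genes tested, together with a fold change of at least 1.5, on the log2(FPKM + 1) scale of all fold changes below. Against control, 4 of the 8 tested genes were lower 12 h after 5 Gy, where 4.96% of all tested genes were lower, and 4 of 8 were lower 12 h after 20 Gy, where 3.64% were. At 24 h, 6 of 8 were lower after 5 Gy, beside 20.8% of all genes, and 6 of 8 after 20 Gy, beside 23.3%. The median log2 fold change of the 8 genes was -0.60 and -0.51 at 12 h after 5 and 20 Gy and -0.87 and -0.88 at 24 h, against medians of 0.03, 0.01, -0.05 and -0.14 over all genes tested. The libraries of the groups did not overlap, with every exposed library lower, for 6, 5, 7 and 6 of the 8 genes in the same order, beside 16.9%, 17%, 35.1% and 36.7% of all genes. In these bulk libraries, fewer cells of a type and less RNA per cell cannot be told apart.

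**Figure D1:**
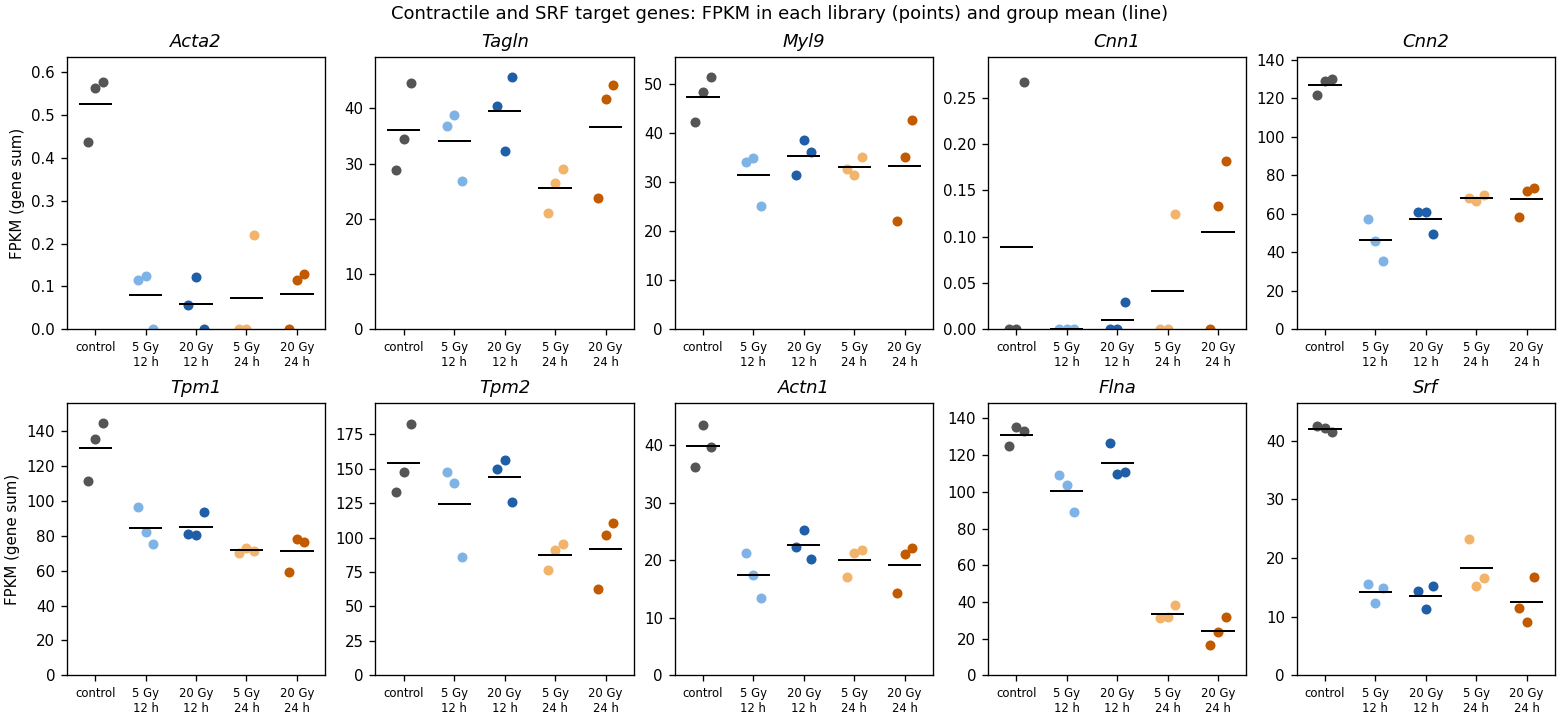
Summed FPKM (vertical axes, each from 0) of the 10 genes in each of the 15 libraries (points) by group (horizontal axes), with the mean of the 3 libraries as a line. Srf stands at 41.4 to 42.5 FPKM in control and at 23.2 or less in every exposed library, Flna is called lower only at 24 h, and Acta2 and Cnn1 lie below 0.6 FPKM throughout.

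Srf itself, on chromosome 9 at 16737642-16747225 (plus strand, Rnor_6.0), varied little between the control libraries. The 3 control libraries held 42.5, 42.2 and 41.4 FPKM. At 12 h the level was 15.5, 12.4 and 14.9 FPKM after 5 Gy and 14.3, 11.2 and 15.2 FPKM after 20 Gy. At 24 h it was 23.2, 15.2 and 16.5 FPKM after 5 Gy and 11.5, 9.08 and 16.7 FPKM after 20 Gy. All 12 exposed libraries were below the lowest control library, and the exposed groups overlapped in each pair compared between doses or times. The log2 fold change against control was -1.5 ± 0.19 (SE; limma, adjusted p = 0.000207) and -1.57 ± 0.19 (adjusted p = 0.000187) at 12 h and -1.18 ± 0.19 (adjusted p = 0.000189) and -1.72 ± 0.19 (adjusted p = 8.30e-06) at 24 h, for 5 and 20 Gy. From 12 h to 24 h, Srf changed by 0.33 ± 0.19 after 5 Gy (adjusted p = 0.177) and by -0.15 ± 0.19 after 20 Gy (adjusted p = 0.541), neither past the test.

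Of the 27 member transcripts tested, 6 and 5 were lower 12 h after 5 and 20 Gy, beside 4.33% and 3.7% of all transcripts called either way, and 12 and 13 at 24 h, beside 24.1% and 24.2%. Between the times 4 were lower and 1 higher after 5 Gy and 3 lower after 20 Gy, beside 19.8% and 20.4%, and between the doses none was called at 12 h and 2 were lower at 24 h, beside 0.0334% and 1.1%. Among those of Srf, the annotated one (ENSRNOT00000061430) went from 15.3, 20.4 and 14.2 FPKM in control to between 1.00 and 6.66 FPKM over the 12 exposed libraries. Its log2 fold change was between -2.01 and -2.67 and was called lower in each of the 4 exposed groups. A shorter assembled transcript that starts at the same position and ends earlier (MSTRG.23508.1, 16737642-16745627) had a mean of 5.55 ± 2.25 FPKM in control (SD, n = 3) and group means between 4.01 and 6.46 FPKM after exposure, and it was not called in any comparison. The most abundant transcript over all libraries, the assembled MSTRG.23508.5, had 15.5, 8.38 and 18.7 FPKM in control and group means of 2.66 to 6.04 FPKM after exposure, and it was called lower only 12 h after 5 Gy (limma, adjusted p = 0.0467, and 0.352, 0.179 and 0.101 in the other groups). Whether the transcripts of Srf changed in their shares was not tested. An assembled transcript listed at 0 in 8 exposed libraries (MSTRG.23508.6) reached 9.21 FPKM in replicate 1 of the 24 h 5 Gy group. How StringTie split reads among overlapping transcripts cannot be seen in the table.

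Cnn2, which encodes the calponin of non-muscle and smooth muscle cells (chromosome 7, 12782491-12787750, plus strand), was lower in all exposed groups. Control libraries held 122, 129 and 130.0 FPKM. At 12 h these became 57.4, 46.1 and 35.5 FPKM after 5 Gy and 61.2, 60.7 and 49.5 FPKM after 20 Gy. At 24 h the values were 68.3, 66.6 and 69.6 FPKM after 5 Gy and 58.5, 72.1 and 73.2 FPKM after 20 Gy. All exposed libraries were below all controls, and all 3 of the 24 h 5 Gy libraries were above all 3 of the 12 h 5 Gy libraries, while the groups after 20 Gy overlapped between the times. The log2 fold change against control was -1.46 ± 0.15 (limma, adjusted p = 3.03e-05) and -1.14 ± 0.15 (adjusted p = 0.000224) at 12 h, and -0.89 ± 0.15 (adjusted p = 0.000178) and -0.90 ± 0.15 (adjusted p = 0.000170) at 24 h. The difference between the times after 5 Gy was 0.57 ± 0.15 (adjusted p = 0.00473), just short of the fold limit and so not a call, though it passed at 0.67 with libraries scaled to the same FPKM sum, at 0.74 without replicate 1 of the 12 h group and at 0.59 without replicate 2 of the 24 h group, and after 20 Gy it was 0.24 ± 0.15 (adjusted p = 0.174). An assembled transcript with 5 exons (MSTRG.20774.2) fell further than the annotated one, from 13.9 ± 2.36 FPKM to group means of 0.801 to 2.38 FPKM.

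Cnn1, the calponin of differentiated smooth muscle, was listed at 0 in 10 of the 15 libraries and was at most 0.266 FPKM, in replicate 3 of the control group. It was not tested, and no difference could be detected at this depth.

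Actn1 encodes an alpha-actinin that crosslinks actin at stress fibres and focal adhesions (chromosome 6, 103375799-103470555, minus strand). Its level was 36.2, 43.5 and 39.6 FPKM in control. At 12 h it was 21.3, 17.4 and 13.5 FPKM after 5 Gy and 22.3, 25.3 and 20.2 FPKM after 20 Gy. The 24 h values were 17.1, 21.2 and 21.9 FPKM after 5 Gy and 14.3, 21.1 and 22.1 FPKM after 20 Gy. Control stood apart from every exposed library, and the 4 exposed groups were not separated by the test, with overlapping libraries in each pair compared. The log2 fold changes were -1.17 ± 0.18 (limma, adjusted p = 0.000673) and -0.79 ± 0.18 (adjusted p = 0.00924) at 12 h and -0.96 ± 0.18 (adjusted p = 0.000482) and -1.03 ± 0.18 (adjusted p = 0.000278) at 24 h. Its most abundant transcript (ENSRNOT00000088795), at 26.7 ± 5.35 FPKM in control and group means of 10.7 to 17.5 FPKM after exposure, was called in no comparison with control (limma, adjusted p = 0.0634, 0.349, 0.306 and 0.249). The assembled transcript MSTRG.20096.5, at 3.58 ± 1.10 FPKM in control, was called lower in all 4 groups, MSTRG.20096.4 in both 24 h groups and MSTRG.20096.3 24 h after 20 Gy.

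Tpm1 and Tpm2 encode tropomyosins, the coiled rods that lie along the actin filament and set which proteins may bind it. Tpm1 (chromosome 8, 72814740-72842228, minus strand) had 111, 135 and 144 FPKM in control. It had 96.6, 82.0 and 75.5 FPKM 12 h after 5 Gy and 81.2, 80.5 and 93.4 FPKM 12 h after 20 Gy, with 70.3, 73.1 and 71.4 FPKM 24 h after 5 Gy and 59.4, 77.9 and 76.2 FPKM 24 h after 20 Gy. No exposed library reached the lowest control library. The log2 fold changes at 12 h were -0.61 ± 0.13 (limma, adjusted p = 0.00487) and -0.60 ± 0.13 (adjusted p = 0.00615), both just past the fold limit and both lost when libraries were scaled to the same FPKM sum or quantile normalized, and at 24 h they were -0.85 ± 0.13 (adjusted p = 8.20e-05) and -0.86 ± 0.13 (adjusted p = 7.33e-05). After quantile normalization the call 24 h after 5 Gy was lost too, at -0.58. Both 12 h calls were also lost when certain single libraries were left out, the one after 5 Gy without replicate 3 of the 12 h 5 Gy group. Most of the Tpm1 level came from a transcript of 8 exons that begins at the inner start site (ENSRNOT00000024617, from 72836159), with 84.5 ± 16.9 FPKM in control and 52.7 ± 0.431 and 53.2 ± 6.86 FPKM at 24 h. The transcript with 10 exons (ENSRNOT00000048044) was the least steady, with 22.8, 3.19 and 9.92 FPKM in control and 0.193, 0.382 and 0.790 FPKM 24 h after 20 Gy, and replicate 2 at 12 h after 20 Gy held 18.4 FPKM.

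Tpm2 (chromosome 5, 59016622-59025631, minus strand) was the member with the highest control level per length, at 133, 148 and 182 FPKM. At 12 h it overlapped control, with 148, 139 and 85.6 FPKM after 5 Gy and 149.6, 157 and 126 FPKM after 20 Gy. The 24 h libraries had 76.7, 91.3 and 95 FPKM after 5 Gy and 62.3, 102 and 110.4 FPKM after 20 Gy, all below the lowest control library. The log2 fold change was -0.34 ± 0.23 (limma, adjusted p = 0.349) and -0.09 ± 0.23 (adjusted p = 0.835) at 12 h and -0.80 ± 0.23 (adjusted p = 0.00910) and -0.78 ± 0.23 (adjusted p = 0.0112) at 24 h. The call 24 h after 20 Gy was lost without replicate 1 of that group, where the log2 fold change was -0.52, and both 24 h calls were lost after quantile normalization, at -0.54 and -0.53.

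The gene sum of Tpm2 joins several transcripts. The transcript ENSRNOT00000022801, whose 3′ end lies at 59017575, had 31.6, 36.9 and 34.1 FPKM in control, and at 12 h it held 26.3, 26.1 and 24.6 FPKM after 5 Gy and 26.6, 25.6 and 30.3 FPKM after 20 Gy. At 24 h it held 6.59, 11.9 and 8.28 FPKM after 5 Gy and 1.96, 3.30 and 0.502 FPKM after 20 Gy. Its libraries did not overlap between control and 24 h, nor between the doses at 24 h. Its log2 fold change at 24 h was -1.86 ± 0.31 after 5 Gy (limma on 41932 transcripts, adjusted p = 0.000760) and -3.72 ± 0.31 after 20 Gy (adjusted p = 4.53e-06), and the doses differed at 24 h by -1.85 ± 0.31 (adjusted p = 0.0124). The more abundant transcript ENSRNOT00000049000, which ends at 59016622, had 79.9, 91.0 and 125 FPKM in control, 51.4, 66.5 and 78.8 FPKM 24 h after 5 Gy and 52.7, 73.8 and 75.4 FPKM 24 h after 20 Gy, and it was not called in any comparison. Its log2 fold change at 24 h was -0.58 and -0.54, each ± 0.32 (limma, adjusted p = 0.219 and 0.251). Both carry 9 exons and share their 5′ position at 59025631. The difference in change between the transcripts was not tested.

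**Figure D2:**
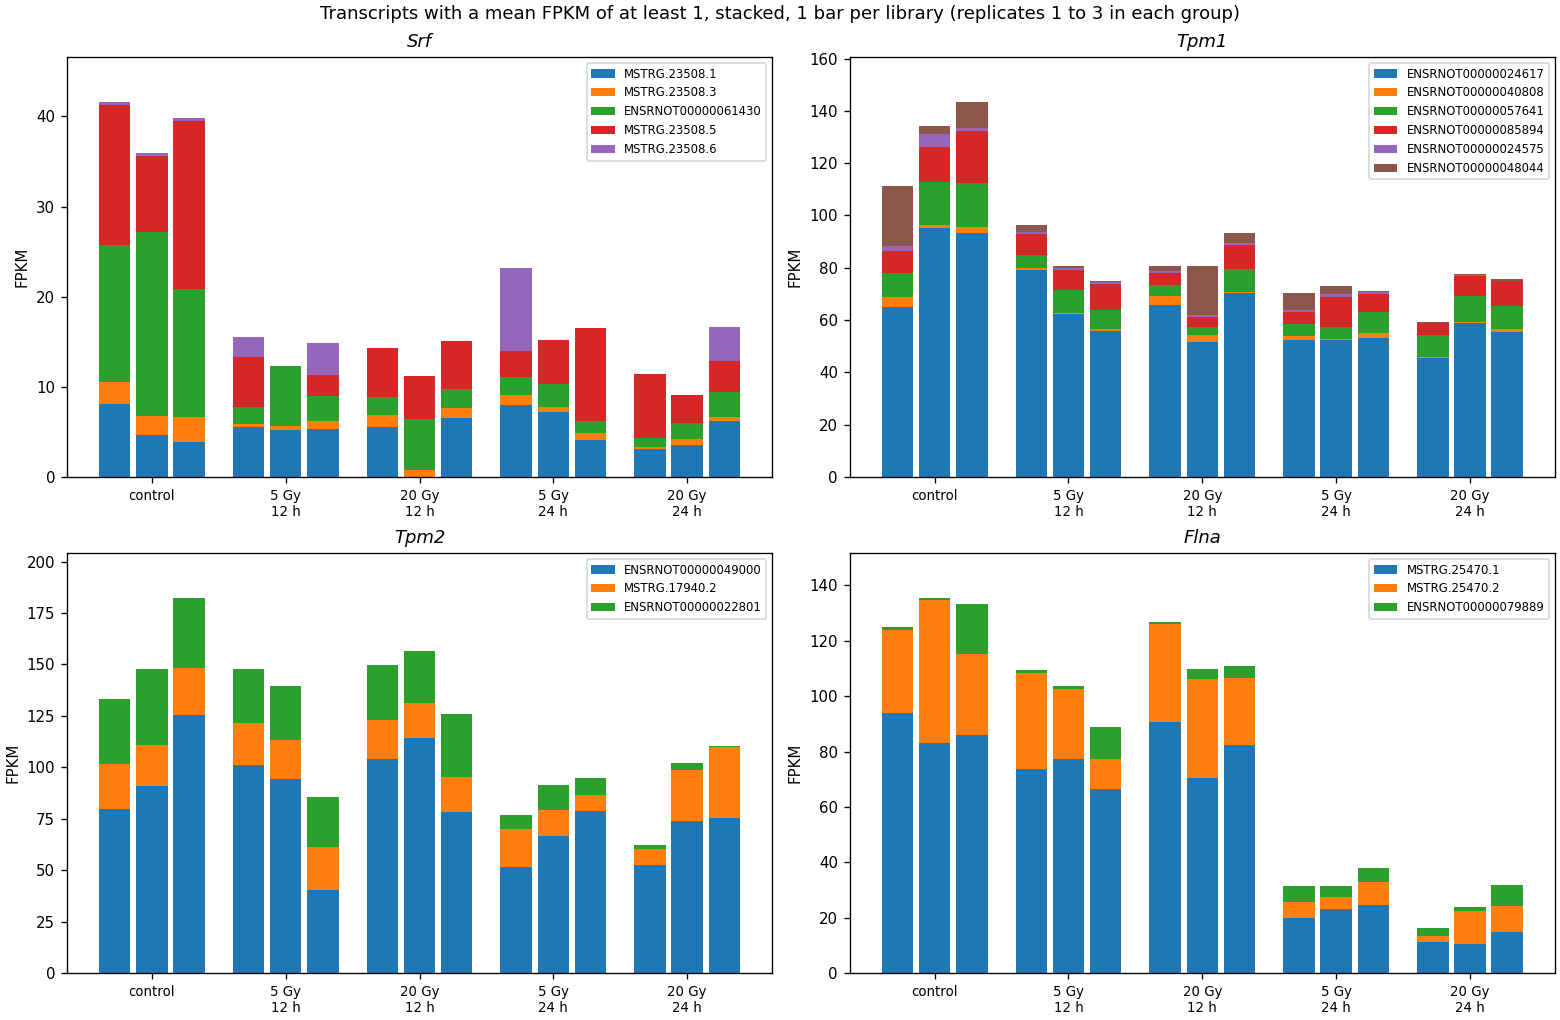
FPKM (vertical axes) of the transcripts of Srf, Tpm1, Tpm2 and Flna with a mean of at least 1 FPKM, stacked, with 1 bar per library and replicates 1 to 3 in order within each group (horizontal axes). The green part of Tpm2, ENSRNOT00000022801, is 31.6 to 36.9 FPKM in control and 0.502 to 3.30 FPKM 24 h after 20 Gy, and the blue and orange parts of Flna shrink at 24 h.

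Flna encodes filamin A, a large crosslinker that ties actin filaments to membrane receptors, on the X chromosome at 156463953-156487245 (plus strand). It had 125, 135 and 133 FPKM in control. At 12 h it held 109, 104 and 89.0 FPKM after 5 Gy and 127, 109.8 and 111 FPKM after 20 Gy. The 24 h cultures held 31.3, 31.6 and 38.1 FPKM after 5 Gy and 16.3, 23.8 and 31.7 FPKM after 20 Gy. The 12 h libraries lay near the controls, those after 20 Gy overlapping them, and the 24 h libraries were all below every other library. The log2 fold change against control was -0.38 ± 0.18 (limma, adjusted p = 0.159) and -0.18 ± 0.18 (adjusted p = 0.551) at 12 h and -1.94 ± 0.18 (adjusted p = 1.25e-06) and -2.46 ± 0.18 (adjusted p = 1.80e-07) at 24 h.

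The time difference itself was called for Flna at both doses, at -1.55 ± 0.18 after 5 Gy (limma, adjusted p = 1.10e-05) and -2.27 ± 0.18 after 20 Gy (adjusted p = 4.35e-07), higher at 12 h than at 24 h in every library. For Tpm2 it was called after 20 Gy at -0.68 ± 0.23 (adjusted p = 0.0239) and not after 5 Gy, where it was -0.46 ± 0.23 (adjusted p = 0.107). The call of Tpm2 was lost without replicate 1 or 2 of the 12 h 20 Gy group, at -0.65 and -0.62, and without replicate 1 of the 24 h 20 Gy group, at -0.43, and after quantile normalization, at -0.52, and after 5 Gy it was gained without replicate 3 of the 12 h group, at -0.71. These were the 1 and 2 members called lower between the times after 5 and 20 Gy, beside 19.3% and 22.1% of all genes. No unexposed culture was set against this time difference.

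Most of the Flna level came from a pair of assembled transcripts. MSTRG.25470.1, with 48 exons and 8490 bases, had 94.0, 82.9 and 85.9 FPKM in control, 20.0, 23.3 and 24.5 FPKM 24 h after 5 Gy and 11.2, 10.5 and 14.7 FPKM 24 h after 20 Gy, and the doses differed at 24 h by -0.85 ± 0.14 (limma, adjusted p = 0.0104). MSTRG.25470.2, with 47 exons, went from 37.0 ± 12.8 FPKM in control to 6.05 ± 2.20 and 7.90 ± 5.03 FPKM at 24 h. The annotated transcript (ENSRNOT00000079889, 46 exons) was below 1.06 FPKM in replicates 1 and 2 of control and 18.2 FPKM in replicate 3, and it did not pass the test in any comparison. The fall of the Flna sum therefore lies in the pair that StringTie assembled from these libraries. This pair shares the strand and the last base, 156487245, of the annotated transcript. The annotated transcript held 5.08% of the gene mean in control and 14.9% and 16.2% 24 h after 5 and 20 Gy. How reads were split among these overlapping transcripts cannot be seen. With annotated transcripts alone, an alternative chosen after seeing the data, Flna stood at 0.55 and 0.04 at 24 h and was not called.

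Tagln and Myl9, markers of contractile cells, gave no call. Tagln, which encodes the actin-binding protein transgelin (chromosome 8, 50222896-50231357, minus strand), had 28.9, 34.5 and 44.5 FPKM in control, 36.7, 38.9 and 26.9 FPKM 12 h after 5 Gy and 40.5, 32.3 and 45.7 FPKM 12 h after 20 Gy. At 24 h it had 21.1, 26.6 and 29.0 FPKM after 5 Gy and 23.8, 41.7 and 44.2 FPKM after 20 Gy, so that every group overlapped control. The log2 fold changes were -0.07, 0.14, -0.47 and -0.01, each ± 0.24, for 5 and 20 Gy at 12 h and 5 and 20 Gy at 24 h, with limma adjusted p from 0.108 to 0.986. The value 24 h after 20 Gy turned to 0.07 with libraries scaled to the same FPKM sum. The 95% interval at 12 h ran from -0.58 to 0.45 after 5 Gy and from -0.38 to 0.65 after 20 Gy, and at 24 h from -0.98 to 0.05 and from -0.52 to 0.51. The locus of Tagln in the assembly also carries Sidt2, and its unnamed transcripts are not in the sum.

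Myl9 encodes the regulatory light chain of smooth muscle and non-muscle myosin (chromosome 3, 152857592-152863960, plus strand). Its level was 42.3, 48.4 and 51.5 FPKM in control, 34.1, 35.0 and 25.2 FPKM 12 h after 5 Gy and 31.6, 38.6 and 36.2 FPKM 12 h after 20 Gy. At 24 h it was 32.8, 31.5 and 35.2 FPKM after 5 Gy and 22.2, 35.2 and 42.7 FPKM after 20 Gy. Only the last group overlapped control, with its replicate 3. The log2 fold changes were -0.59 (limma, adjusted p = 0.0514), -0.41 (adjusted p = 0.179), -0.50 (adjusted p = 0.0401) and -0.54 (adjusted p = 0.0297), each ± 0.19, in the same order, and those at 24 h passed the adjusted p but not the fold limit. The difference 24 h after 20 Gy passed both limits without control replicate 1, at -0.62, and without replicate 2 or 3 of that group, at -0.60 and -0.74. Without replicate 1 of that group it was -0.28 (limma, adjusted p = 0.132), and it passed neither limit.

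Acta2, the alpha actin of smooth muscle (chromosome 1, 252537615-252550394, minus strand), was near the floor of detection. The control libraries held 0.437, 0.563 and 0.576 FPKM, the worth of about 25.3 to 36.0 reads. The exposed libraries held 0.115, 0.124 and 0 FPKM 12 h after 5 Gy, 0.0568, 0.121 and 0 FPKM 12 h after 20 Gy, 0, 0 and 0.221 FPKM 24 h after 5 Gy and 0, 0.116 and 0.130 FPKM 24 h after 20 Gy. All exposed values were below the lowest control value, with an exact two-sided permutation p of 0.1 in each comparison, which is the smallest that 3 against 3 allows. Acta2 was under the filter and stands outside the counts above.

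**Figure D3:**
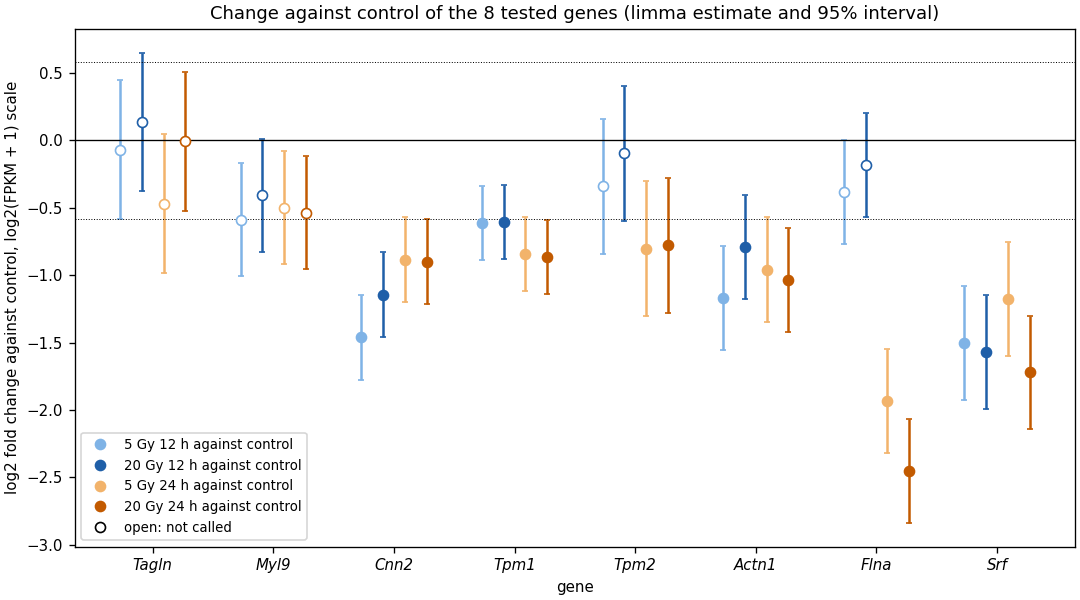
Log2 fold change against control (vertical axis, log2(FPKM + 1) scale) of the 8 tested genes (horizontal axis) in the 4 exposed groups (colours), with the limma estimate, its 95% interval and filled points for calls, and dotted lines mark the fold limit of 1.5. Srf, Cnn2, Actn1 and Tpm1 are filled in all groups, Tpm2 and Flna at 24 h alone, and Tagln and Myl9 in none.

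Between the doses, no member was called at 12 h or at 24 h, beside 0.123% and 2.42% of all genes, and none in the difference of the time changes between the doses, beside 0.553%. At an unadjusted limma p under 0.05 there were 1, 2 and 1 members in these comparisons. At 12 h this was Cnn2, 0.32 ± 0.15 higher after 20 Gy (adjusted p = 0.698). At 24 h these were Flna, at -0.52 ± 0.18 (adjusted p = 0.121, 95% interval -0.90 to -0.14), and Srf, at -0.54 ± 0.19 (adjusted p = 0.138, 95% interval -0.97 to -0.12), both lower after 20 Gy. The change of Flna from 12 h to 24 h differed between the doses by -0.72 ± 0.25 (adjusted p = 0.245). Without replicate 3 of the 24 h 20 Gy group, Flna and Srf were called between the doses at 24 h, at -0.74 and -0.76.

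A few libraries held the extreme value of many members. In the 12 h 5 Gy group, replicate 3 was the lowest of its group for 7 of the 8 tested genes, and so was replicate 1 in the 24 h 20 Gy group and replicate 1 in control. Some results changed when one of these libraries was left out, and those of Tpm1, Tpm2 and Myl9 are given with the gene. The summed level of the 10 members was 641 to 768 FPKM in control, 366 to 527 FPKM at 12 h and 268 to 418 FPKM at 24 h.

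Levels across the 15 libraries, as log2(FPKM + 1), were compared between each member and the 8890 genes with a mean of at least 5 FPKM, as a description. All libraries are shared between the genes of a pair. Among the members, Cnn2 and Actn1 were the most alike (Pearson r = 0.901), Flna was nearest to Tpm2 (r = 0.840), and Tagln and Srf were the least alike (r = -0.03). Outside the members, the gene most like Flna was S1pr2, a receptor for sphingosine 1-phosphate (r = 0.990), with 21.1 FPKM in control, 19.6 and 20.5 FPKM at 12 h and 10.4 and 7.19 FPKM at 24 h. The most alike of Srf was Brpf1 (r = 0.938), of Cnn2 Nelfe (r = 0.950), of Actn1 Hnrnpa1 (r = 0.954), of Tpm1 Mcm6 (r = 0.948), of Tpm2 Tmem98 (r = 0.978), of Myl9 Ifitm1 (r = 0.922) and of Tagln Sgcb (r = 0.855).

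Among all tested genes, 4.98% and 4.9% were called higher 12 h after 5 and 20 Gy and 20.5% and 17% at 24 h, beside the lower shares given above. Of 6 tested cofactors and regulators of SRF, none was called at 12 h, and 3 were higher at 24 h in each dose, with none lower. These were Mrtfa, a myocardin-related factor, at 11.5, 11.3 and 9.67 FPKM in control and 17.5, 17.4 and 16.5 FPKM 24 h after 5 Gy (0.62 on the log2 scale, limma, adjusted p = 7.78e-05), and 2 genes named after their values were seen. They were Scai, a repressor of MRTF, at 0.59 and 0.78 for 5 and 20 Gy, and Klf4, a transcription factor that represses smooth muscle genes, at 48.3 ± 3.17 FPKM in control and 546 ± 46.8 and 393 ± 79.1 FPKM at 24 h. Myocd, the cofactor of smooth and cardiac muscle, was under the filter, with 0.184 to 0.261 FPKM in control and 0.457 to 1.06 FPKM 24 h after 20 Gy.

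Of 29 tested MRTF-linked target and focal adhesion genes, 11 were lower and none higher 12 h after 5 Gy, and 10 lower and none higher 12 h after 20 Gy, with medians of -0.41 and -0.33. At 24 h 17 were lower and 4 higher after 5 Gy, and 16 lower and 4 higher after 20 Gy, with medians of -0.77 and -0.82. The lower shares of all genes were 4.96% and 3.64% at 12 h and 20.8% and 23.3% at 24 h, and the higher ones at 24 h were 20.5% and 17%. Actb, the cytoplasmic beta actin and the reference gene of the study's quantitative PCR, was among the lower ones in all groups, with 3178, 3721 and 3856 FPKM in control. It held 1517 to 2035 FPKM over the 12 h libraries and 1042 to 1417 FPKM over the 24 h libraries, and the log2 fold changes were -1.10, -0.88, -1.67 and -1.57 (limma, adjusted p from 1.79e-07 to 0.000411). Actg1, the gamma actin whose promoter stretch is given above, went from 253 ± 42.9 FPKM to group means of 97.3 to 108 FPKM, and Tgfb1i1, a focal adhesion adaptor, from 17.5 ± 0.397 FPKM to 3.38 to 7.70 FPKM. Ccn1, a secreted matrix protein, took another course, with 87.4, 72.9 and 102 FPKM in control, 6.36 to 23.0 FPKM at 12 h, 83.6, 112 and 71.8 FPKM 24 h after 5 Gy and 348, 205 and 259.7 FPKM 24 h after 20 Gy. It was called lower in both 12 h groups and higher 24 h after 20 Gy (1.60 on the log2 scale, limma, adjusted p = 0.000326).

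Among 18 tested other smooth muscle contractile genes, 2 were lower in each 12 h group, with 1 higher after 20 Gy, and 11 were lower and 2 higher in each 24 h group. Beside these stand 4.96% and 3.64% of all genes lower and 4.98% and 4.9% higher at 12 h, and 20.8% and 23.3% lower and 20.5% and 17% higher at 24 h. Csrp1, a LIM protein of the actin cytoskeleton, went from 217 ± 20.6 FPKM to group means of 104 to 133 FPKM and was called in all 4 groups. Tpm4, another tropomyosin, had 285 ± 50.9 FPKM in control, 124 ± 41.5 FPKM 12 h after 5 Gy and 212 ± 8.95 FPKM 24 h after 5 Gy, the only group in which it was not called. Myh11, the smooth muscle myosin heavy chain, was higher in 3 groups but low throughout, at 0.0433, 0.0914 and 0.0476 FPKM in control and 0.412 to 1.98 FPKM in the exposed libraries.

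Of the 7 tested TCF-linked immediate early genes, 5 were lower in each 12 h group, beside 4.96% and 3.64% of all genes. In each 24 h group 3 were lower and 3 higher, beside 20.8% and 23.3% lower and 20.5% and 17% higher among all genes. Egr1, Egr2 and Egr3, zinc finger factors, were lower in all 4 groups, and Egr3 went from 21.8, 25.5 and 29.9 FPKM in control to 0.0689 to 1.45 FPKM in the exposed libraries. Fos, a subunit of the AP-1 factor, went from 10.2 ± 1.04 FPKM to 1.65 ± 0.795 and 3.42 ± 1.69 FPKM at 12 h and to 137 ± 2.98 and 176 ± 20.9 FPKM at 24 h. Whether any of these lists differed from the members in change was not tested.

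**Figure D4:**
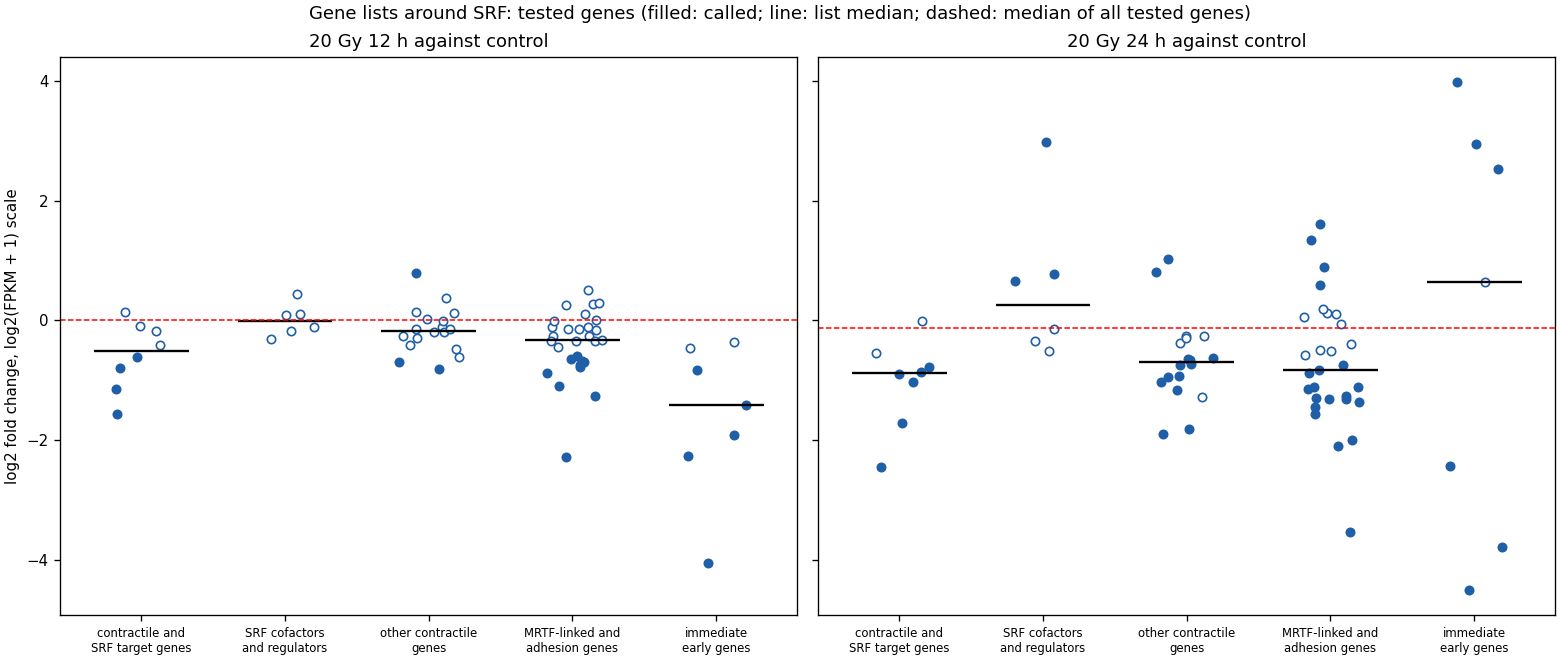
Log2 fold change against control (vertical axis, log2(FPKM + 1) scale) of the tested genes of each list (horizontal axis) 12 h and 24 h after 20 Gy, with filled points for calls, a bar for the list median and a dashed line for the median of all tested genes. The medians of the contractile and SRF target genes lie at -0.51 and -0.88, and the immediate early genes spread both ways at 24 h.

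Change at 24 h varied with transcript length over the table. The median log2 fold change was -0.21 and -0.22 for 5 and 20 Gy in genes whose main transcript is under 1000 bases and 0.40 and 0.26 in those of 6000 bases or more. Flna, at 8490 bases, went the opposite way to the genes of its length, of which 6.62% and 8.62% had a log2 fold change under -1. With the length trend removed, an alternative chosen after seeing the data, 6 of 8 members were lower 24 h after 5 Gy and 5 of 8 after 20 Gy.

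**Figure D5:**
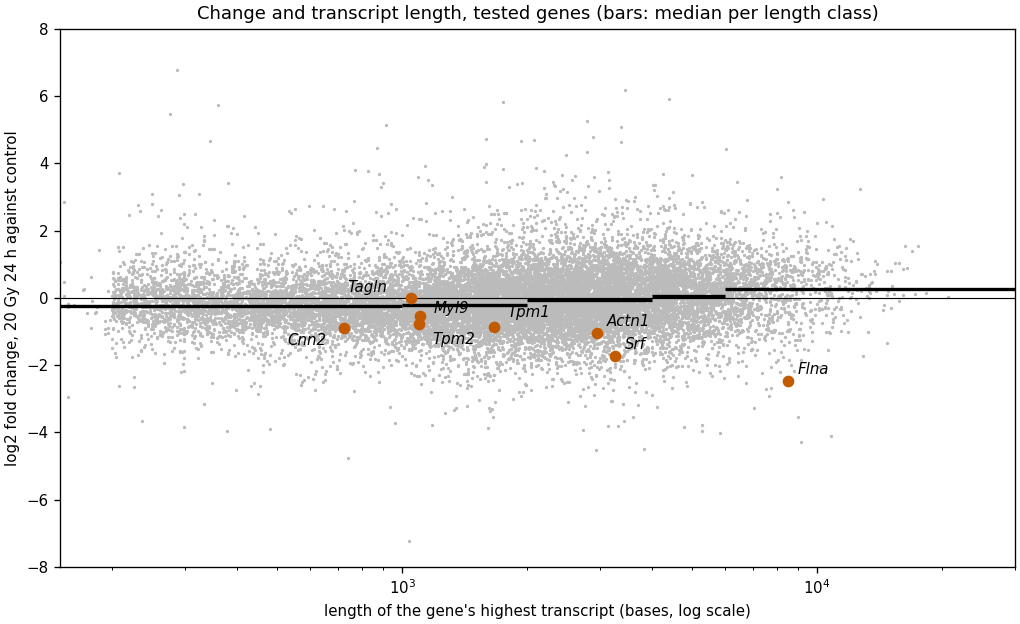
Log2 fold change 24 h after 20 Gy against control (vertical axis, log2(FPKM + 1) scale, cut at 8 either way) against the length of the highest transcript of each tested gene (horizontal axis, log scale), with the members in orange and bars for the median of each length class. The bars go up to 0.26 in genes of 6000 bases or more, where Flna lies at -2.46.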

How the data were processed

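Poly(A)-selected RNA of 15 libraries in 5 groups of 3 was sequenced with reads of 150 bases. Per the methods and the submitters' processing notes, the authors trimmed reads with Trimmomatic, aligned them to Rnor_6.0 with HISAT2 2.0.13, converted them with samtools 1.9 and assembled transcripts with StringTie 1.3.5, and they deposited 1 table of FPKM for 85322 transcripts. FPKM are not counts, so no count model was used, and the kallisto counts behind the authors' edgeR tests were not analysed here.

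FPKM were summed per gene into 37367 genes, and 4738 unnamed transcripts of loci with several names stayed outside. A locus with no named gene was counted as a gene of its own, so the shares of all genes include such loci. Genes with a mean of at least 0.5 FPKM (17895) were fitted as log2(FPKM + 1) in limma 3.58.1 (R 4.3.3) with a mean for each of the groups, a trended variance prior and 10 residual degrees of freedom. The pseudocount of 1 understates changes of low genes. Calls needed an adjusted p under 0.05 and a fold of 1.5, or the adjusted p alone for the difference of time changes. Single genes under the filter were compared by exact permutation. The script was tested on simulated data. Tables were handled in Python 3.11.15 with pandas 2.3.3. Depth came from the steps between low FPKM values, of which 76.5 to 81.8% per library were whole bases within 0.05, against 7.10 to 8.87% at other steps.

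Named genes are all members and up to 4 genes per list called in at least 3 of the 4 comparisons with control. Actb, the myocardin family and the gene most like each member are named too. Of the member transcripts with a mean of at least 1 FPKM, only some are named. The members and lists were chosen with earlier results of these data known. The methods call the replicates biological, but littermates were used and nothing says that replicates were separate cultures or animals, so p-values measure the spread between these libraries, which may be technical. Replicate numbers did not pair the libraries: deviations of libraries with the same number correlated at -0.18 to 0.23 over 30 pairs, with 4 over 0.1. Alternatives were the pseudocount, the filter, the scaling, the libraries fitted, the variance trend, a replicate block, each library left out, the top transcript and the fold limit. The results of 1 further list of genes are not reported here.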

Additional observations from a re-analysis of the deposited data

Results flagged for a closer look

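Flna differed between 24 h and 12 h at both doses, by -1.55 after 5 Gy and -2.27 after 20 Gy on the log2 scale, and these values drew attention because the change against control was tested to differ between the times. Tpm2 did so after 20 Gy, by -0.68. No unexposed 24 h culture was analysed here, so time after exposure and time in culture cannot be told apart.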

How the results depend on the processing

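A tally over the alternatives, without the fold limit of 2, took the 8 tested members against control and Flna, Tpm2, Cnn2 and Srf between the times. Between the doses it took only Cnn2 at 12 h and Flna and Srf at 24 h. In this tally, 671 values kept their direction and side of the thresholds, 34 lost a call, 13 gained one and 17 turned direction. With libraries scaled to the same FPKM sum, 2 members were called between the times after 5 Gy. Quantile normalization gave 2 there and 1 after 20 Gy, and 3, 3, 4 and 5 lower against control in place of 4, 4, 6 and 6, with Tpm1 lost in both 12 h groups and 24 h after 5 Gy and Tpm2 in both 24 h groups. The top transcript in place of the gene sum gave 1 call 12 h after 20 Gy and 3 in each 24 h group. It gave 1 between the times after 20 Gy, 1 between the doses at 24 h and 1 for the difference of time changes. In the fit of all transcripts, the top transcript of Srf was called lower against control only 12 h after 5 Gy. That of Actn1 was not called against control, and that of Tpm1 was called lower only at 24 h. A fold limit of 2 lost the call of Tpm1 12 h after 5 Gy. It gave 2 calls 12 h after 20 Gy, 2 and 3 at 24 h after 5 and 20 Gy, and 1 between the times after 20 Gy. Leaving out each library in turn gave 3 to 4 calls in each 12 h group, 6 to 6 and 5 to 7 at 24 h after 5 and 20 Gy, 1 to 2 between the times at each dose, 0 to 0 and 0 to 2 between the doses at 12 h and 24 h, and 0 to 1 for the difference of time changes. Among alternatives chosen after seeing the data, annotated transcripts alone gave 0 and 1 calls between the times after 5 and 20 Gy, and removing the length trend gave 2 and 1. The cause of these shifts was not tested.

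Tagln 24 h after 20 Gy turned to 0.072 with equal sums, 0.062 after quantile normalization, 0.25 without the length trend and 0.054 with an assembled transcript added, and ranged from -0.16 to 0.27 as libraries were left out (0.15 without control replicate 3). At 12 h, leaving out libraries gave Tagln -0.21 to 0.091 after 5 Gy and -0.0041 to 0.30 after 20 Gy. Tpm2 12 h after 20 Gy was 0.0087 for the top transcript and -0.19 to 0.030 as libraries were left out, and Srf between the times after 20 Gy was -0.37 to 0.037. With annotated transcripts alone, Flna was at 0.55 and 0.043 against control at 24 h and at 0.70 and 0.29 between the times after 5 and 20 Gy, and Srf at -0.58 between the times after 5 Gy.

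With the replicate number as a block, the members called were 4, 4, 6 and 6 against control, 1 and 2 between the times, 0 and 0 between the doses and 0 for the difference of time changes, the same counts as without it. Scaling moved the share of lower among called genes 24 h after 5 Gy from 50.3% to 41.4% and the median of all genes from -0.05 to 0.05.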
